A study of Mus musculus with 24 samples.

Results

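Quadriceps muscle of MRL/MpJ (MRL) mice that had been injured and filled with decellularized extracellular matrix (ECM) was compared with quadriceps muscle of uninjured MRL mice. The comparison took in every gene with a symbol in the deposited matrix, 14159 of 14160 rows, and 6 of the 24 libraries, 3 per group. MRL/MpJ is an inbred strain known for closing ear wounds with little scar and for a tendency to autoimmunity, and C57BL/6 (B6) is the common laboratory strain that it was set against. Injured muscle was collected 21 days after a volumetric muscle loss injury, in which a piece of the mid-belly of the quadriceps was cut out of young adult female mice and the gap was filled with saline, ECM or polyethylene (PE) particles. Uninjured muscle had no surgery.

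The ECM was pig small intestinal submucosa, stripped of cells, milled to a powder and implanted as a hydrated suspension. The study used it as a pro-regenerative material, so the comparison asks what injury and implant together left different from intact muscle in the strain. The labels name no transgene or deletion in either strain. Surgery, loss of muscle and the implant differed together between both groups and cannot be told apart here. Saline-treated and PE-treated MRL mice, and ECM-treated and uninjured B6 mice, 3 libraries each, are used below to place the values and in further comparisons. They and the saline-treated and PE-treated B6 mice also entered the fitted model. The spread behind each test of ECM-treated against uninjured MRL muscle thus comes from all 24 libraries.

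After an injury, muscle stem cells of adult muscle divide, switch on myogenic factors such as myogenin and fuse into new fibres, which first make embryonic and neonatal myosins and the foetal subunit of the acetylcholine receptor. Macrophages clear debris, present antigen and signal to stem cells and fibroblasts. Matrix scaffolds are known for drawing a type 2 response, in which interleukin-4 and interleukin-13 lead macrophages to make arginase 1 and chitinase-like proteins and eosinophils enter the tissue.

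Levels are on the scale of log2 CPM, the count of a gene scaled to the size of its library. A count of 0 stands at -3.65 in all 24 libraries, and 3 counts, used here as the floor of what can be told from 0, stand at -2.33. Library pairs correlated across genes with a Pearson's r between 0.939 and 0.967 within the ECM group, between 0.953 and 0.969 within the uninjured group and between 0.936 and 0.968 across the groups, so that the groups did not stand apart as a whole. Muscle was the main tissue in every library: Myh4, the main fast myosin of mouse limb muscle, was at 16.41, 16.19 and 16.15 in the ECM-treated and at 15.64, 16.07 and 16.32 in the uninjured libraries. All ECM-treated libraries carried 1 first sequencing index and all uninjured libraries another, so this index and the group cannot be told apart. The third ECM-treated library stood furthest from the uninjured libraries in 60.6% of the 876 genes whose ECM-treated libraries were all higher, and in 65.1% of the 982 genes whose ECM-treated libraries were all lower.

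Across the genome, few genes were called between ECM-treated and uninjured MRL muscle. With 3 libraries per group, a lack of calls does not show that the differences were small. By limma with Benjamini-Hochberg adjustment over 14159 genes, 2 genes rose (0.0141%) and 0 fell (0.00%) at an adjusted p under 0.05. At an unadjusted p under 0.05 there were 538 genes, 282 higher (1.99%) and 256 lower (1.81%). The median log2 fold change over all genes was -0.02, and 780 genes differed by more than 1 on the log2 scale. ECM-treated libraries were all above the uninjured ones in 6.19% of genes and all below them in 6.94%. The mean was higher in 47.2% of genes and lower in 52.8%. In the same model 60 genes were called between ECM-treated and uninjured B6 muscle (0.424%), and 0 between saline-treated and uninjured MRL muscle, where 439 genes had an unadjusted p under 0.05. PE-treated MRL muscle, set against the same uninjured libraries, had 1377 calls (9.73%). That count hangs on the cutoff: genes from an unadjusted p of 3.34e-05 (Rsad2) to 0.00148 (Cd74) all had an adjusted p of 0.0448 by limma. PE-treated libraries also lay further apart, with a median SD over genes of 0.475, beside 0.254 in the ECM-treated and 0.245 in the uninjured MRL group.

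**Figure D1:**
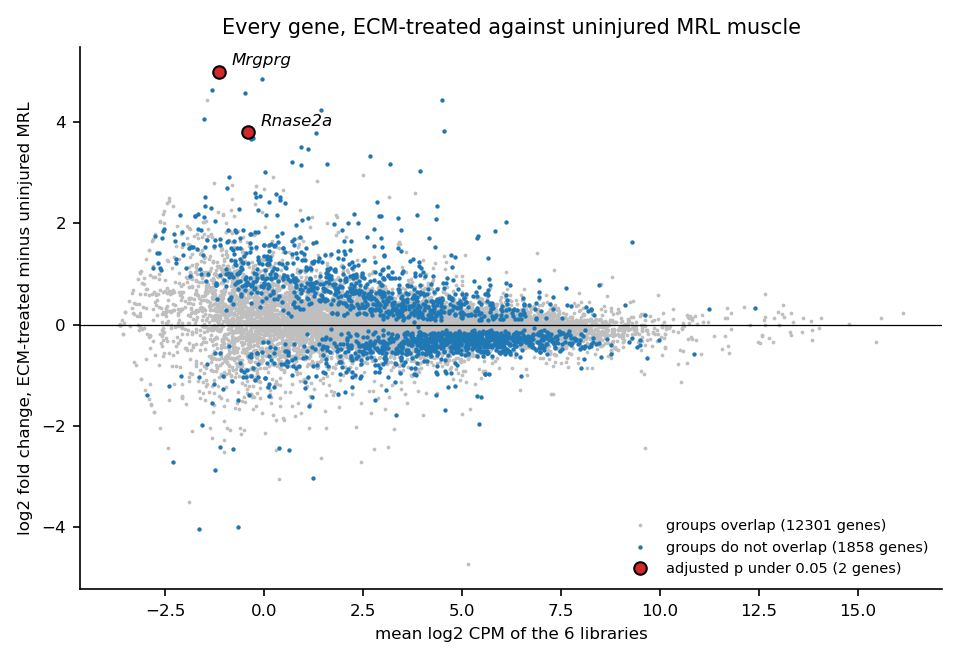
Mean log2 CPM of the 6 libraries (x axis) against the log2 fold change between ECM-treated and uninjured MRL muscle (y axis), 1 point per gene. Red points mark the 2 genes with an adjusted p under 0.05, blue points the other genes whose groups do not overlap, of 1858 in all, and grey points those whose groups overlap. Both called genes lie at low levels and above 0.

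The larger of the 2 calls was Mrgprg (ENSMUSG00000050276), which encodes an orphan member of the Mas-related family of G protein-coupled receptors and lies on the minus strand of chr7:143317447-143320733 of GRCm39. Its log2 CPM was 1.96, 2.15 and -0.08 in the ECM-treated libraries and -3.65, a count of 0, in every uninjured library. All ECM-treated libraries were above the floor and all uninjured libraries were at 0. The matrix holds only genes above 1 CPM in at least 3 libraries. Among the libraries described here, Mrgprg was above 1 CPM only in ECM-treated ones of MRL and B6 mice. Its entry into the test thus came from the libraries where it was high, and the zeros are not separate evidence. In linear units the ECM-treated mean was 3.01 CPM ± 1.88 (SD, n = 3), at least 25.3-fold higher than the floor of 3 counts per library, 0.119 CPM. The fitted log2 fold change was 5.0 (SE 0.74, adjusted p = 0.0278 by limma). The call was lost in a fit of the 6 libraries alone (adjusted p = 0.383) and when any library but the third ECM-treated one was left out (adjusted p from 0.103 to 0.237), and over all 17 alternative settings the adjusted p ran from 0.00492 to 0.383.

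Mrgprg was also at 0 in all saline-treated MRL libraries, and the difference between ECM and saline was called (adjusted p = 0.0278 by limma). It was the only gene of 14159 called in that comparison (0.00706%), where 503 genes had an unadjusted p under 0.05. PE-treated MRL libraries were at -3.65, -2.41 and -2.09, and the log2 difference of 4.06 (SE 0.74) between ECM and PE had an adjusted p of 0.0558. In B6 mice the ECM-treated libraries were at 1.73, 2.12 and -0.07 and the uninjured ones at -3.02, -1.59 and -3.01, which was also called (log2 fold change 3.80, adjusted p = 0.0324 by limma). ECM-treated libraries of both strains thus lay between -0.08 and 2.15. The response of MRL minus that of B6 was 1.20, with a 95% interval of -1.0 to 3.40 and an adjusted p of 1.00.

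The promoter window of Mrgprg, 250 bases before and 50 after its annotated start at chr7:143320684-143320983 (minus strand, GRCm39, GENCODE), is shown because the gene is the largest call. Capitals mark a match to TTC and GAA with any 4 bases between them, the spacing that STAT6, the main transcription factor downstream of interleukin-4, is known to bind. Searched on both strands, this motif is in 5.95% of the 13776 windows of genes in the matrix. It is in 4 of the 28 windows of type 2 and alternative activation genes (14.3%), but not in those of Arg1 and Ccl8. Rnase2a, the second call, has no match, and the muscle gene Tmem8c has 1. The match is a description of the sequence and not a site that was measured.
Mrgprg promoter: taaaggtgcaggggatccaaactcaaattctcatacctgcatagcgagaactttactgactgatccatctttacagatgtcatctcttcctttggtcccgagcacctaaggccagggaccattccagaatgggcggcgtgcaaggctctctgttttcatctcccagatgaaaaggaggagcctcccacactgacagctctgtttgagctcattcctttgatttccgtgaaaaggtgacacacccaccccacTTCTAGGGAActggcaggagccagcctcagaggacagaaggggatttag

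The second call was Rnase2a (ENSMUSG00000047222, also known as Ear11), of the eosinophil-associated ribonuclease family, on the minus strand of chr14:51492719-51493595. It stood at 1.13, 1.26 and 2.09 in the ECM-treated libraries and at -3.10, -1.13 and -2.69 in the uninjured ones. Every ECM-treated library was above every uninjured library, and a pair of the uninjured libraries lay under the floor. Like Mrgprg, Rnase2a was above 1 CPM, the level of the filter, only in ECM-treated libraries of MRL and B6 mice among those described here. The log2 fold change was 3.80 (SE 0.62, adjusted p = 0.0486 by limma), from 2.11, 2.32 and 4.19 CPM in the ECM-treated against 0.0373, 0.377 and 0.0759 CPM in the uninjured libraries. The call was lost in a fit of the 6 libraries alone (adjusted p = 0.383) and when any library but the second uninjured one was left out (adjusted p from 0.204 to 0.640), and over 17 settings the adjusted p ran from 0.0208 to 1.00. Members of this family are close copies of each other, so that reads may be shared between them, and an annotated long noncoding RNA spans the locus on the other strand.

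Rnase2a was lower after the other injuries of MRL muscle: -1.07, -2.32 and -1.08 with saline, and -1.35, -0.87 and -0.59 with PE. Neither difference from ECM was called (2.99, adjusted p = 0.860, and 2.43, adjusted p = 0.0561, by limma). In B6 muscle it went from -3.65 in all uninjured libraries to 5.24, 2.78 and 2.80 with ECM, at least 144-fold higher than the floor. The ECM response in MRL minus that in B6 was -3.46 on the log2 scale, with a 95% interval of -5.30 to -1.62. With an adjusted p of 0.804 over all genes that difference did not pass the test.

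Of 13 eosinophil markers listed, 3 were in the matrix and none of these was called by limma, with 1 at an unadjusted p under 0.05. Ear2, a relative of Rnase2a, was at 0.07, -0.42 and 1.07 in the ECM-treated and at -1.40, -1.13 and -1.89 in the uninjured libraries (log2 fold change 1.72, SE 0.52, unadjusted p = 0.00397), without overlap. Siglecf, the surface lectin used to gate mouse eosinophils, was at -2.66, -2.78 and -3.65 with ECM and at -3.17, -2.99 and -3.65 without injury, under the floor in all 6. The summed level of the 3 markers ranged from 1.18 to 2.75 CPM in the ECM-treated and from 0.405 to 0.942 CPM in the uninjured libraries. In such bulk samples fewer cells of a type and less RNA per cell cannot be told apart.

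Fewer than 5 genes were called in either direction, so the 5 with the smallest p on each side were also taken. On the higher side these were Mrgprg and Rnase2a and then Pax5, Sidt1 and Klrk1, with log2 fold changes of 4.07, 2.91 and 2.12 and adjusted p-values of 0.847, 0.847 and 1.00. Pax5, the B cell commitment factor, was at 1.53, -0.47 and 0.51 in the ECM-treated and at -3.65, -3.33 and -3.65 in the uninjured libraries. Among the libraries described here, it was above the filter level of 1 CPM only in ECM-treated ones. Klrk1 encodes the NKG2D receptor of natural killer and T cells. The groups of all 5 genes did not overlap.

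On the lower side stood Mfsd7b (now Flvcr1), Mcf2l, Zfp874b, Xlr3a and Ppig, and none was called. Flvcr1, a heme and choline transporter, was at 3.85, 3.96 and 3.34 with ECM against 5.87, 5.11 and 5.21 without injury, a log2 fold change of -1.68 (SE 0.34, adjusted p = 0.423 by limma). The highest ECM-treated library was more than 1 log2 unit below the lowest uninjured one. Saline-treated MRL libraries were at 4.47, 5.2 and 5.36. Mcf2l, a guanine nucleotide exchange factor, was at 4.04, 3.96 and 3.61 against 5.05, 5.06 and 4.42, a log2 fold change of -0.97 (SE 0.21, adjusted p = 0.718).

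Of the genes of the type 2 and alternative activation program, 28 were in the matrix. The mean was higher in 19 and lower in 9, their median log2 fold change was 0.18 beside -0.02 for all genes, and 0 were called, with 3 higher and 1 lower at an unadjusted p under 0.05. In 6 of the 28 (21.4%) every ECM-treated library was above every uninjured one, beside 6.19% of all genes. The medians by library were 0.55, 0.59 and -0.10, so the third ECM-treated library did not share the shift.

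Within this group, Ccl8, a monocyte-attracting chemokine, had the smallest p. It was at 1.74, 3.15 and 4.63 in the ECM-treated and at -0.50, 0.80 and -0.26 in the uninjured libraries, a log2 fold change of 3.16 (SE 0.92, unadjusted p = 0.00282). Arg1, which encodes the enzyme that turns arginine into ornithine, was at 1.30, 1.25 and 1.47 against 0.92, -2.68 and -1.5. Its ECM-treated libraries were close together and above all uninjured ones, with a log2 fold change of 2.43 (SE 0.83, unadjusted p = 0.00895, adjusted p = 1.00 by limma). Mrc1 and Clec10a, lectins of alternatively activated macrophages, differed by 1.14 and 1.46 without overlap. Cish, a target of STAT5 that limits cytokine signals, was lower at 4.11, 5.11 and 4.13 against 6.4, 7.15 and 5.68 (-1.96, unadjusted p = 0.00787).

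Retnla and Chil3, further textbook genes of the program, behaved otherwise. Retnla was spread from -2.76 to 5.86 in the ECM-treated and from -3.65 to 3.52 in the uninjured libraries, so its log2 fold change of 2.91 (SE 2.52) was within the spread. Chil3, the chitinase-like protein Ym1, was at -3.65, -3.01 and -1.58 with ECM and at -2.69, -3.17 and -2.69 without injury. Only 1 ECM-treated MRL library was above the floor. Cd163 and Mgl2, scavenger and lectin genes of tissue macrophages, had log2 fold changes of 0.19 and 0.63 with overlapping groups, as did Gata3, the master factor of type 2 lymphocytes, at 1.34.

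The difference between strains was tested directly, as the ECM response in MRL minus the ECM response in B6, and 1 of 14159 genes was called (0.00706%), with 512 at an unadjusted p under 0.05. That gene was Chil3. ECM-treated B6 libraries were at 8.91, 4.36 and 5.94 and uninjured B6 libraries at -2.24, -3.04 and -2.23, so all ECM-treated B6 libraries were far above all MRL libraries of either group. Chil3 was also low in MRL muscle with saline (-1.63, -2.33 and -3.65) and with PE (-2.10, 0.37 and -1.87). Reads of both strains were quantified against the same GRCm39 cDNA, and an effect of strain on mapping was not tested. The log2 fold change of Chil3 was 8.91 (SE 0.91) in B6 and 0.10 (SE 0.91) in MRL, and their difference was -8.81 (SE 1.29, adjusted p = 0.0214 by limma). Leaving out any MRL library but the third ECM-treated one ended this call, with the difference between -8.97 and -8.35 and the adjusted p between 0.0649 and 0.102. In MRL alone the direction of Chil3 turned without the third ECM-treated library (-0.48). Arg1 also reached 8.51, 5.19 and 5.88 in ECM-treated B6 muscle. Its difference between strains was -4.66, with a 95% interval of -7.13 to -2.19, and had an adjusted p of 0.804. For Ccl8 it was -3.37, with an interval of -6.10 to -0.63 and an adjusted p of 1.00.

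**Figure D2:**
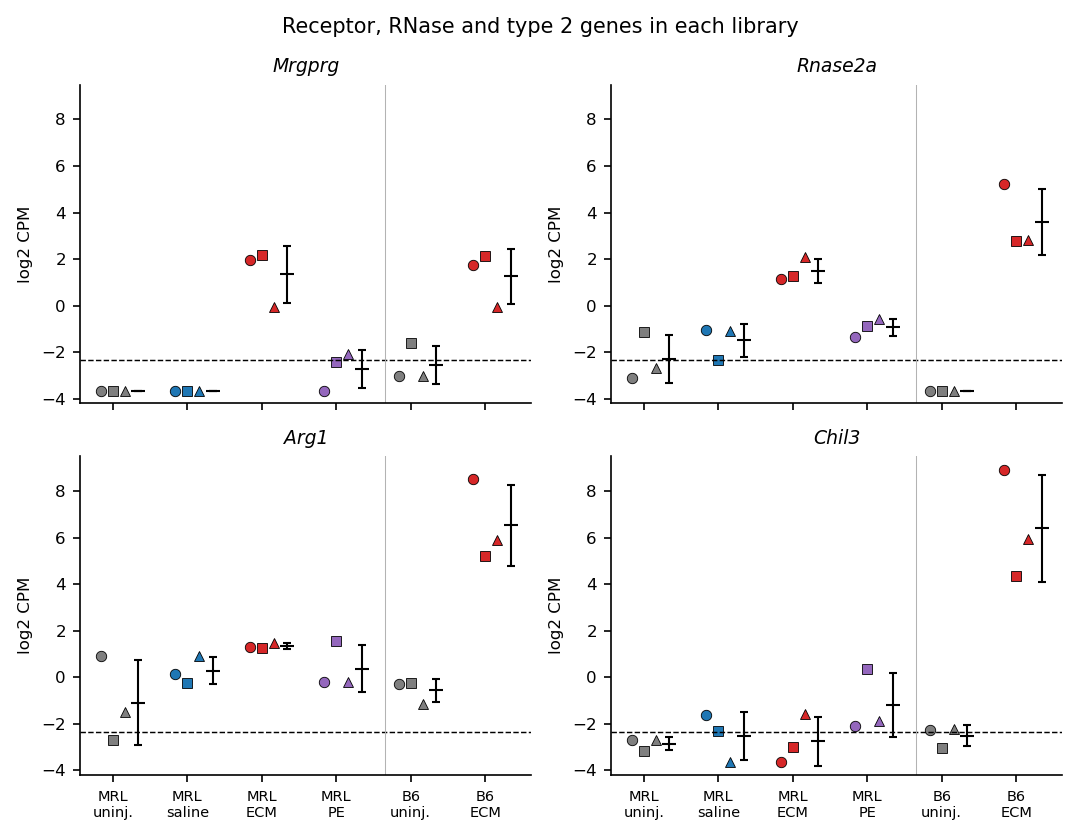
Log2 CPM (y axis) of 4 genes in MRL (left of the grey line) and B6 (right of it) libraries by treatment, with a circle, square and triangle for libraries 1, 2 and 3 and a black bar for the mean ± SD. The dashed line is the floor of 3 counts. Mrgprg and Rnase2a are higher in all ECM-treated libraries of both strains, whereas Chil3 is high in ECM-treated B6 libraries and at or near the floor in ECM-treated MRL libraries.

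Genes of muscle regeneration were mostly higher with ECM, although none was called. Of 19 myogenic regulators and developmental muscle genes, 17 had a higher and 2 a lower mean with ECM, and the median of their log2 fold changes was 0.96. In 8 of the 19 (42.1%, beside 6.19% of all genes) all ECM-treated libraries were above all uninjured ones. At an unadjusted p under 0.05 there were 4. The median by library was 0.52, 0.84 and 1.45, and the third ECM-treated library was the highest of the 3 in 14 of the 19 genes while the first was the lowest in 14.

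The fusion genes stood first. Gm7325 (now Mymx, myomixer) was at 1.02, 2.33 and 3.77 in the ECM-treated and at -3.19, -3.26 and -1.0 in the uninjured libraries, a log2 fold change of 4.86 (SE 1.37, unadjusted p = 0.00211). Tmem8c (now Mymk, myomaker), its partner in the fusion of myoblasts, was at 1.79, 2.67 and 4.09 against -0.56, -1.12 and -0.19 (3.47, SE 1.28, unadjusted p = 0.0140). Neither gene's groups overlapped. Myog, which encodes the differentiation factor myogenin, was at 4.15, 5.10 and 5.80 against 3.47, 2.99 and 3.47, a log2 fold change of 1.71 (SE 0.85, unadjusted p = 0.0586).

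Developmental contractile genes had higher means with a wide spread. Myh3, the embryonic myosin, was at 3.91, 5.09 and 6.31 with ECM and at 4.41, 1.14 and 1.97 without injury, where 1 uninjured library lay among the ECM-treated ones. Myh8, the neonatal myosin, was at 3.85, 4.38 and 6.58 against 3.77, 2.42 and 2.09, and Actc1, the cardiac actin of developing muscle, at 9.26, 9.72 and 11.31 against 8.0, 8.37 and 9.04. Pax7, the factor that marks muscle stem cells, had a log2 fold change of 0.07 (SE 0.35) and Myf5 0.37 (SE 0.48). Mstn, the growth inhibitor myostatin, was at 6.59, 6.22 and 6.10 against 5.94, 6.63 and 6.89, a log2 fold change of -0.18 (SE 0.51).

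Acetylcholine receptor and denervation genes, which adult fibres keep low away from the nerve, gave a like count. The mean was higher in 13 of 16 and lower in 3, and the median log2 fold change was 0.52. In 7 of 16 (43.8%, beside 6.19% of all genes) the groups did not overlap, all higher. None was called, and 6 had an unadjusted p under 0.05. Chrng, the foetal gamma subunit of the receptor, was at 2.99, 3.55 and 4.18 in the ECM-treated and at 0.65, -2.59 and -0.09 in the uninjured libraries (log2 fold change 4.25, SE 1.33, unadjusted p = 0.00477). Chrna1 and Chrnd, the alpha and delta subunits, differed by 2.09 and 2.14 without overlap. The adult epsilon subunit Chrne was at 2.78, 2.13 and 3.82 against 4.01, 1.32 and 3.94, a log2 fold change of -0.18 (SE 0.75) with overlapping groups. Gadd45a, a stress gene of denervated fibres, was at 6.17, 7.45 and 7.74 against 4.83, 5.18 and 5.28.

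Sln and Rrad, chosen outside the lists after their values were seen, showed the same separation. Sln, the small inhibitor sarcolipin of the calcium pump, was at 5.26, 7.30 and 7.58 in the ECM-treated and at 3.67, 1.37 and 1.81 in the uninjured libraries, 21.6-fold higher on the fitted scale (log2 fold change 4.43, SE 1.5, adjusted p = 1.00 by limma). Rrad, a small GTPase of regenerating muscle, was at 5.63, 7.31 and 6.44 against 3.17, 2.52 and 2.24, 14.1-fold higher on that scale with an SE of 1.16 on the log2 scale. The lowest ECM-treated library was above the highest uninjured one for both genes. Saline-treated and PE-treated libraries, which share the estimate of the spread, ranged from 3.71 to 7.63 and from 1.79 to 7.42 for Sln.

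**Figure D3:**
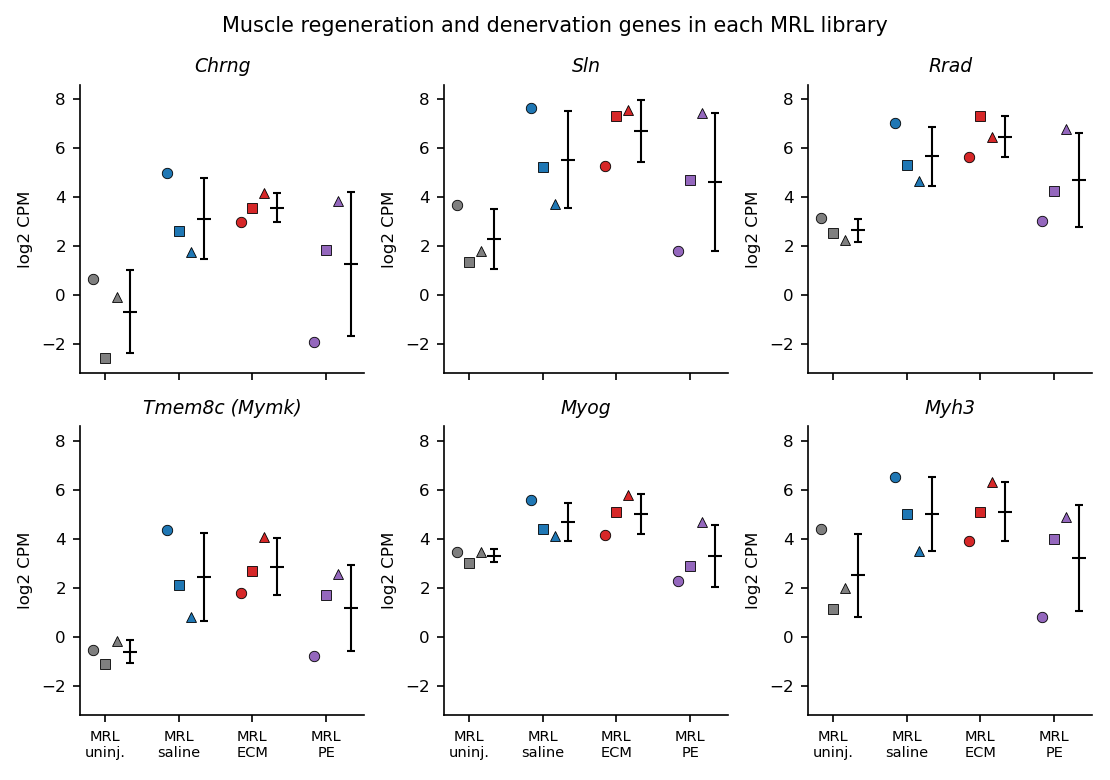
Log2 CPM (y axis) of 6 muscle genes in the MRL libraries by treatment (x axis), with a circle, square and triangle for libraries 1, 2 and 3 and a black bar for the mean ± SD. ECM-treated libraries lie above all uninjured libraries for each gene but Myh3, where the first uninjured library at 4.41 is above the first ECM-treated library at 3.91.

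The promoter windows of Chrng and Tmem8c are shown because both genes are textbook targets of myogenic factors, which bind the E-box CANNTG (capitals, which reads the same on both strands). The Chrng window is chr1:87133242-87133541 (plus strand) and holds 3 E-boxes, of which 2 read CAGCTG. The Tmem8c window is chr2:26962179-26962478 (minus strand) and holds 4. An E-box is in 66.6% of the 13776 windows and 3 or more are in 12.0%. Of the 16 acetylcholine receptor and denervation genes, 8 hold 3 or more (50%), as do 2 of the 19 myogenic genes (10.5%). CAGCTG, part of the CANNTG matches, is in 14.4% of all windows.
Chrng promoter: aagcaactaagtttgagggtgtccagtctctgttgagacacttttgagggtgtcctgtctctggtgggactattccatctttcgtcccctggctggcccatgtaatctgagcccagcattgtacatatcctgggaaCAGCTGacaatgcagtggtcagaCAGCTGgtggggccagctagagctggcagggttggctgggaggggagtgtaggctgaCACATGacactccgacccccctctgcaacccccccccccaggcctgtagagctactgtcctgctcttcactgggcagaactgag
Tmem8c promoter: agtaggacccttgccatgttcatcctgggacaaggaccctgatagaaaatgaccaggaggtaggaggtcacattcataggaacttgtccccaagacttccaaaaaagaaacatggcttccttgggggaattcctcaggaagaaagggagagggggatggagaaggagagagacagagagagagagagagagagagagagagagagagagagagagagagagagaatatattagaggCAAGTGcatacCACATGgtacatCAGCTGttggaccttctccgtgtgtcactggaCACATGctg

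Saline-treated muscle, which had the injury and no implant, gives values to set beside these. The median of the 19 myogenic genes was 0.64 with saline, -0.01 with PE and 1.32 with ECM in B6 mice, beside 0.96 here, and the 3 MRL values share the uninjured libraries. For the acetylcholine receptor genes these medians were 0.40, 0.13 and 1.47 beside 0.52. Chrng was at 4.98, 2.62 and 1.78 in saline-treated MRL libraries, a range that holds all ECM-treated ones, and the log2 difference between ECM and saline was 0.44 with a 95% interval of -2.34 to 3.23. The interval is wide, so a difference of several-fold in either direction was not detectable at this number of libraries.

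Adult fibre genes showed no comparable count. Of 15 fast fibre genes, 11 had a higher and 4 a lower mean, the median was 0.14, which turned to -0.04 without the first uninjured library, and no gene's groups were apart. Ckm, the muscle creatine kinase, was at 12.63, 12.80 and 13.47 against 12.22, 11.96 and 12.88. Of 12 slow fibre genes 10 had a lower mean, with a median of -1.0, but this rested on 1 uninjured library. Myh7, the slow myosin, was at 8.38 in that library against 1.70 and 2.87 in the other uninjured ones and 2.29, 2.36 and 2.10 in the ECM-treated ones. Without the first uninjured library the median of the slow genes was 0.19.

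Macrophage markers were the next group. Of 19 measured, 18 had a higher mean with ECM and 1 a lower, and the median log2 fold change was 0.91. In 6 (31.6%, beside 6.19% of all genes) the groups did not overlap, all higher. None was called, and 4 had an unadjusted p under 0.05. Their summed level ranged from 248 to 423 CPM in the ECM-treated and from 115 to 231 CPM in the uninjured libraries, so the ranges did not overlap. Ms4a7, a tetraspan gene of macrophages, was at 1.69, 1.45 and 2.26 with ECM against 0.62, -0.15 and -0.99 (1.97, SE 0.72, unadjusted p = 0.0129). C1qa, C1qb and C1qc, the complement C1q chains that tissue macrophages make, differed by 1.24, 1.06 and 1.15, and Emr1 (now Adgre1, the F4/80 antigen) by 1.17. Cd68, a lysosomal marker, was at 2.75, 3.07 and 3.20 against 2.37, 2.90 and 2.04, a log2 fold change of 0.57 (SE 0.95). That SE draws on all groups: the SD of Cd68 was 0.23 in the ECM-treated and 0.44 in the uninjured MRL libraries, but 3.26 in the PE-treated MRL libraries.

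Genes of antigen presentation on MHC class II were also mostly higher. Of 14 genes, 12 had a higher and 2 a lower mean, with a median of 0.75. Higher without overlap were 5 (35.7%, beside 6.19% of all genes). No member was called, against 6 below 0.05 before adjustment. H2-Ab1, the beta chain of the class II molecule I-A, was at 4.75, 4.49 and 6.03 in the ECM-treated and at 3.33, 4.18 and 3.12 in the uninjured libraries (1.54, SE 0.54, unadjusted p = 0.0105). Cd74, the invariant chain, was at 6.13, 5.97 and 6.86 against 4.76, 5.62 and 4.61. Ciita, the transactivator of class II genes, and Flt3, the receptor of dendritic cell precursors, differed by 1.20 and 1.52. The third ECM-treated library was highest here too, and without it the median of the list was 0.35. Its own median difference was 1.9 beside 0.62 and 0.52 in the other two.

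Chemokine and interferon genes followed. Of 36 chemokine and chemokine receptor genes, 26 had a higher and 10 a lower mean, at a median of 0.53. Higher without overlap were 10 (27.8%, beside 6.19% of all genes). No member was called, against 6 below 0.05 before adjustment. Ccr2, the receptor of inflammatory monocytes, was at 2.51, 2.81 and 3.41 against 1.86, 1.82 and 0.61, and Ccl6 at 3.75, 4.94 and 4.44 against 2.67, 3.22 and 1.66. Of 37 interferon-induced genes 31 had a higher mean, with a median of 0.28 and 6 at an unadjusted p under 0.05. Higher without overlap were 5 (13.5%, beside 6.19% of all genes). Rsad2, the antiviral protein viperin, was at 0.88, 1.99 and 2.40 against 0.37, 0.34 and -0.62 (1.73, SE 0.50, unadjusted p = 0.00253). The second ECM-treated library was the highest for this list, with a median of 0.70 beside 0.23 and 0.26.

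Lymphocyte genes were low. Of 17 markers of T, B and natural killer cells in the matrix, 13 had a higher mean, with a median of 0.54. Higher without overlap were 2 (11.8%, beside 6.19% of all genes). Lck, the T cell kinase, was at -0.58, -1.10 and 1.00 with ECM against -2.32, -2.29 and -3.65 (2.52, SE 0.74, unadjusted p = 0.00278). Cd3e, a chain of the T cell receptor complex, was at -1.52, -2.87 and -0.76 against -2.97, -3.65 and -3.65, under the floor in all uninjured libraries. The summed level of the list did not separate the groups, at 70.4 to 153 CPM with ECM and 83.8 to 148 CPM without injury. Neutrophil markers summed to 9.53 to 37.9 CPM and 5.93 to 34.9 CPM, with 10 of 15 higher and 1 without overlap (6.67%, beside 6.19% of all genes). The high sums fell in the first and second ECM-treated and the first uninjured libraries, where Lcn2 and Ltf were high. Lcn2 was at 4.51, 4.48 and -0.65 against 4.58, -1.21 and -0.53. The milk gene Csn3 was high in the same libraries, and Ltf is also among the epithelial and mammary markers here. Which cells made this RNA was not tested.

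Matrix genes mostly had a higher mean with ECM, by small differences. All 19 collagens measured had a higher mean, with a median of 0.38 and 0 genes at an unadjusted p under 0.05. Only Col6a3 did not overlap (5.26%, beside 6.19% of all genes). Summed collagen levels overlapped, at 2911.9, 2981.5 and 4066.3 CPM with ECM against 2405.5, 3065.5 and 1772.6 CPM without injury. The third uninjured library was the lowest and the third ECM-treated library the highest. Col1a1, the main chain of fibrillar collagen, was at 8.23, 8.59 and 9.86 against 8.28, 8.38 and 7.62 (0.80, SE 0.73), and Col3a1 at 9.32, 9.48 and 9.88 against 9.0, 9.53 and 8.73 (0.47, SE 0.65). Of 27 matricellular and assembly genes 25 had a higher mean, with a median of 0.40 and 2 higher without overlap (7.41%, beside 6.19% of all genes). Without the third ECM-treated library this median was 0.12. Cyr61, a matricellular protein that binds integrins, was at 5.76, 6.38 and 5.26 against 5.07, 4.93 and 5.16 (0.75, SE 0.29, unadjusted p = 0.0190). Acta2, the actin of myofibroblasts and smooth muscle, was at 4.66, 4.85 and 6.34 against 5.04, 4.88 and 4.19, where the third ECM-treated library alone was high. Piezo1, the stretch-activated channel, had a log2 fold change of 0.22 (SE 0.33).

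Fat and oxidative metabolism lay on the lower side. Of 33 adipocyte and lipid storage genes 31 had a lower mean with ECM, with a median of -0.59. Only Prdm16 did not overlap (3.03%, beside 6.94% of all genes), and no gene reached 0.05 before adjustment. The first ECM-treated library had a median of 0.35 and the others -0.85 and -1.30. The lower direction rested on the second uninjured library, without which the median was 0.12 and Adipoq, Fabp4, Fasn and Pparg turned to 0.73, 0.40, 0.38 and 0.071. Adipoq, the adipokine adiponectin, was at 7.69, 5.32 and 4.88 against 4.20, 8.05 and 6.26, Fabp4, the lipid carrier of fat cells, at 9.23, 7.64 and 7.87 against 7.35, 10.23 and 8.35, and Pparg, the regulator of fat cell fate, at 3.53, 1.61 and 1.42 against 1.9, 4.53 and 2.34. Both groups ranged widely for these genes and overlapped, as they did for Fasn, the fatty acid synthase (-0.68, SE 1.26). The summed level of the list ran from 5099 to 14454 CPM with ECM and from 6527 to 23283 CPM without injury.

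Fatty acid oxidation genes had a lower mean in 26 of 29, with a median of -0.46 and 3 without overlap (10.3%, beside 6.94% of all genes). The medians by library were -0.31, -0.16 and -1.04, and the third ECM-treated library was the lowest of the 3 in all 29 genes. Ppara, the regulator of these genes, was at 3.51, 3.95 and 1.06 against 5.12, 4.24 and 3.78 (-1.54, SE 0.83). Subunits of oxidative phosphorylation had a lower mean in 75 of 77, and in 17 (22.1%, beside 6.94% of all genes) every ECM-treated library was below every uninjured one. The difference was small, with a median of -0.19, and no subunit had an unadjusted p under 0.05. The medians by library were -0.22, -0.04 and -0.32. Summed levels of the subunits overlapped, at 20639, 24250 and 17578 CPM with ECM against 27911, 22334 and 23567 CPM without injury. The highest was the first uninjured library, which also had the high slow fibre genes. A part of fibre type in this difference was not tested. Proliferation genes had a higher mean in 25 of 30, with a median of 0.47 and 3 at an unadjusted p under 0.05. Prc1, a cytokinesis gene, was at 0.24, 0.65 and 2.28 against 0.14, -0.85 and -0.83, and Mki67, the marker Ki-67, at 2.32, 2.47 and 2.23 against 2.30, 1.29 and 0.29.

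**Figure D4:**
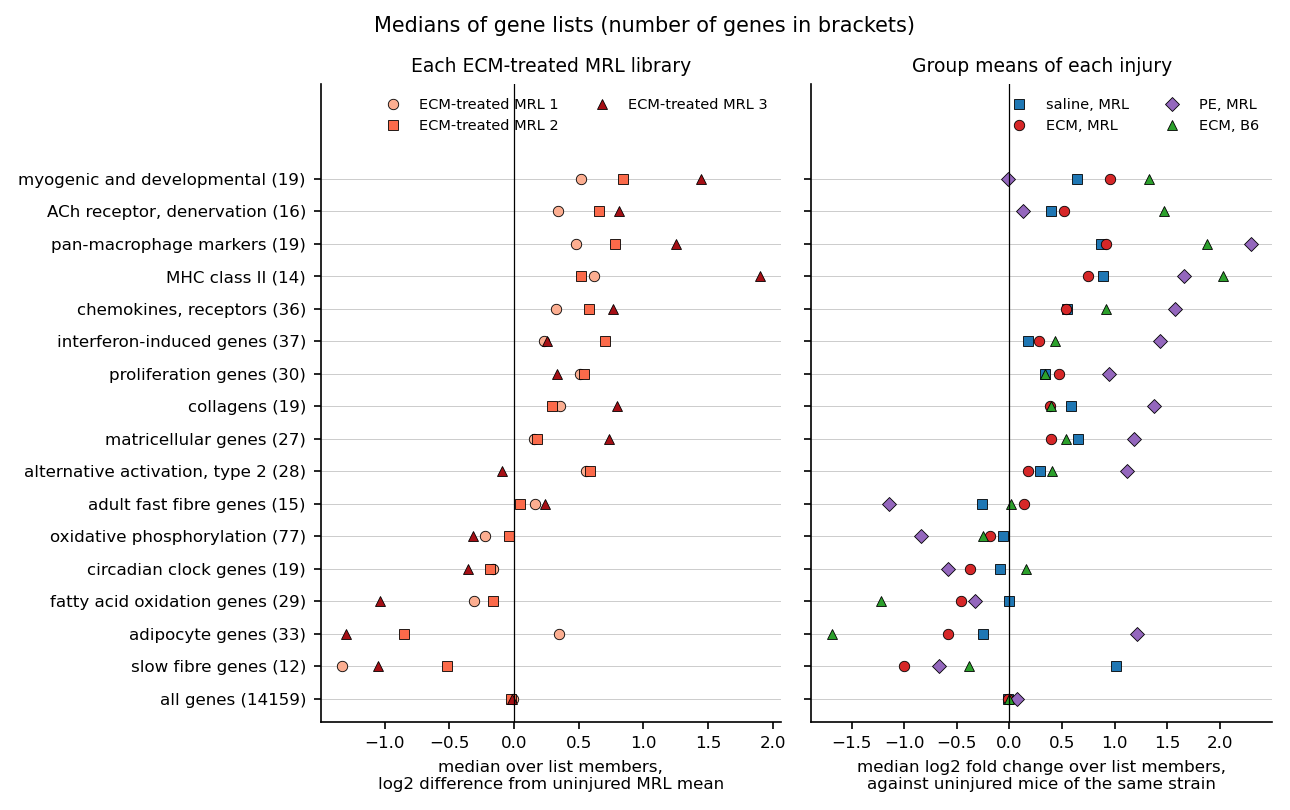
Medians over the members of 16 gene lists and all genes. The left panel gives each ECM-treated MRL library's log2 difference from the uninjured MRL mean, and the right panel the log2 fold change of group means for saline, ECM and PE in MRL mice and ECM in B6 mice, each against uninjured mice of its strain. The 3 ECM-treated libraries lie on both sides of 0 only for the alternative activation and adipocyte lists. For every other list, and for all genes, they lie on 1 side, and all are set against the same uninjured mean. The MRL points of the right panel share their uninjured libraries.

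ECM was also set against the other fillings of the defect. The ECM minus PE median was -1.44 for macrophage markers, -0.95 for collagens, -1.89 for adipocyte genes and 1.44 for myogenic genes, beside -0.08 for all genes. Without the second PE-treated library the medians were -0.20, -0.27, -3.02 and 1.12, so those of macrophage markers and collagens rested mostly on that library. Without the first PE-treated library the adipocyte median was -1.19. The ECM minus saline median was 0.04, -0.23, -0.27 and 0.32 for the same lists. No gene was called between ECM and PE in MRL muscle by limma (0.00%), although 4022 had an unadjusted p under 0.05. That count hangs on the cutoff: Mrgprg, at an unadjusted p of 2.81e-05, had an adjusted p of 0.0558 by limma. Xlr3a, at 0.00102, had one of 0.0561. With every PE-treated library kept, 237 genes were called with the filter, 440 with the replicate block and 2311 with library weights. The count also depended on the third PE-treated library, without which 1740 genes were called, 799 higher and 941 lower with ECM. Spp1, which encodes osteopontin, shows how far the PE-treated libraries lay apart, at -0.60, 10.55 and 5.21, beside 4.17, 5.07 and 2.33 with ECM.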

How the data were processed

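Total RNA of whole quadriceps muscle was sequenced after polyA selection in 24 libraries, 3 for each of 8 groups, each from a separate mouse. The injured groups were collected at day 21, and the labels give no day for the uninjured ones. The authors quantified reads with kallisto against the GRCm39 mouse cDNA, summed estimated counts to gene symbols with tximport, kept genes above 1 CPM in at least 3 libraries, scaled them by TMM and deposited log2 CPM with a prior count of 2 (edgeR). Log2 values are not counts, so no count model was used. The file does not hold the depth of each library. Its shared lowest value corresponds to a mean effective library of 25149700 reads, from which the floor of 3 counts follows. The floor covers counting error only, and the prior compresses fold changes of low genes.

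Groups were compared with limma 3.58.1 in R 4.3.3, fitting every one of the 8 group means to the 24 libraries together, empirical Bayes with a mean trend, 2-sided tests and Benjamini-Hochberg adjustment over 14159 genes. One row without a symbol was left out. An exact permutation test of 3 against 3 cannot go below 0.1 and was not used. The model was tested on simulated data. Symbols were matched to GENCODE (13126 by current and 663 by older symbol, 370 unmatched). Gene lists are described by counts and medians without a test. The values of 1 list member are not reported here. The members and lists were chosen with earlier results of these data known. Named genes were the called ones or, with fewer than 5 in a direction, the 5 with the smallest p, without predicted genes. To these were added up to 4 members of a list with the smallest p or that define it, and genes the study names. Alternatives were the 6 libraries alone, library weights, other scalings, a filter, leaving out each library of the MRL groups compared, a replicate block and a term for the second index. A fit without the second PE-treated MRL library and one without the PE groups were added after seeing the data, as were list medians against PE without each PE-treated library.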

Additional observations from a re-analysis of the deposited data

Results flagged for a closer look

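Chil3 stood out because its response to ECM differed between the strains in a test of the difference itself. The response in MRL minus that in B6 was -8.806 on the log2 scale (SE 1.29, adjusted p = 0.0214 by limma). The level in ECM-treated MRL libraries was -3.65, -3.01 and -1.58, against 8.91, 4.36 and 5.94 in ECM-treated B6 libraries.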

How the results depend on the processing

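Of the 2 calls between ECM-treated and uninjured MRL muscle, both held with a constant prior variance, with robust empirical Bayes and with a fold minimum, and 1, Mrgprg, held with library weights, equal totals, quantile normalization, without the second PE-treated library and without the PE groups. The term for the second index also left 1 call, Flvcr1 (lower). There were 0 calls in the 6 libraries alone (993 genes at an unadjusted p under 0.05), on the log2(CPM + 1) scale (474) and among the 11617 genes whose mean level reached 1 (386), and leaving out 1 library gave 0 to 1. The strain difference had 61 calls with library weights, 0 with the filter and 0 to 1 without 1 MRL library (B6 libraries were not left out), and in the compared groups alone its 1 call was Gm13394 in place of Chil3. ECM against saline had 13 calls with library weights, 0 with the filter and 0 to 1 without 1 library. ECM against PE had 2311 with library weights, 237 with the filter and 0 to 1740 without 1 library. The cause was not tested.

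Same-numbered ECM-treated and uninjured libraries had residual correlations of -0.136, -0.170 and 0.0474. Differently numbered pairs were not set beside them, so these values cannot settle whether the numbers pair the libraries. With the replicate number as a block there were 0 calls for ECM against uninjured (530 at an unadjusted p under 0.05) and for ECM against saline, 440 for ECM against PE, and Chil3 kept its call.

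Of genes without a call, some changed direction. Chil3 in MRL was at -0.18 with library weights and -0.23 with quantile normalization, and from -0.48 to 0.55 without 1 library. With the second index term Mstn was at 0.080, Chrne at 0.15 and Spp1 at -0.98. Without 1 library the ranges were -0.19 to 0.73 for Cd163, -0.46 to 0.019 for Mstn, -1.06 to 0.28 for Chrne, -1.19 to 0.73 for Adipoq, -1.04 to 0.40 for Fabp4, -1.86 to 0.38 for Fasn -0.35 to 1.11 for Spp1, -1.41 to 0.071 for Pparg and -0.14 to 0.41 for Piezo1.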

Other observations

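Clock genes were mostly lower with ECM: 15 of 19 had a lower mean, 6 of them without overlap (31.6%, beside 6.94% of all genes), and 2 of the 4 others were higher without overlap (10.5%, beside 6.19%). None was called by limma, with 3 at an unadjusted p under 0.05. Per1, a repressor of the clock, was at 4.94, 4.96 and 4.4 in the ECM-treated and at 6.51, 6.14 and 5.92 in the uninjured libraries (-1.42, SE 0.39, unadjusted p = 0.00162). Saline-treated libraries were at 6.17, 6.44 and 6.45 and PE-treated ones at 5.30, 4.50 and 5.05. Per2, its relative, was at 3.10, 2.85 and 2.90 against 3.99, 3.75 and 3.99. The time of day of collection is not given in the sources used here.

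Epithelial and mammary markers had a higher mean in 15 of 16, with library medians of 2.37, 1.78 and -0.70. Krt8, a keratin of simple epithelia, was at 4.06, 5.65 and 3.30 against 2.89, 0.00 and 0.15. Csn3, the milk protein kappa-casein, was at 7.01, 5.96 and -1.02 against 5.94, -1.91 and -0.95, high in some libraries of both groups. All 7 red blood cell genes had a lower mean, with a median of -0.74 and overlapping groups, and without the first uninjured library the median was 0.18.

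Rinl was at 0 in all ECM-treated libraries and at 0.13, 0.75 and 0.27 in the uninjured ones (adjusted p = 1.00 by limma). It was chosen after its values were seen.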
